A study of Mus musculus with 6 samples.

Results

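The genes described here code for the protein factors that start and carry out translation in mouse cardiac fibroblasts. The members are every gene whose symbol begins with Eif1 to Eif6 or with Eef1 or Eef2, which gave 88 of the 22063 genes in the expression table. The RNA came from primary fibroblasts of the hearts of Tet3 f/f mice, whose Tet3 alleles are floxed, and 2 groups of 3 libraries were compared. In the control group (GFP) the cells were transduced with Ad-GFP, an adenovirus coding for green fluorescent protein, and in the knockout group (CRE) with Ad-Cre, an adenovirus coding for Cre recombinase, which excises DNA between loxP sites. All 6 libraries came from cells treated afterwards with TGF-β, the cytokine that drives fibroblasts to become matrix-producing myofibroblasts, and no library of untreated cells was analysed here. The age of the mice and the number of animals behind each library are not given in the sources used here. The study describes its replicates as biological, without saying whether the 3 libraries of a group came from separate animals or from separate cultures of the same cells, and p-values measure the spread between these libraries. The names hold some proteins that are not factors themselves, among them kinases, methyltransferases and inhibitors that act on the factors.

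Translation begins when eIF2, bound to GTP, brings the initiator tRNA to the small ribosomal subunit, where eIF1, eIF1A, eIF3 and eIF5 help to find the start codon. The eIF4 proteins bind the cap at the 5′ end of the mRNA, unwind its leader and join it to the ribosome through eIF3. Elongation then depends on eEF1A, which delivers aminoacyl-tRNAs, on eEF1B, which reloads eEF1A with GTP, and on eEF2, which moves the ribosome by a codon. Kinases control the rate at several of these steps, on eIF2, on the cap-binding step and on eEF2, and activated fibroblasts are known for making large amounts of secreted matrix protein.

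Tet3, which codes for the enzyme targeted by the design, gave 64.9, 54.4 and 52.0 CPM (the read count normalised to the TMM-scaled library size) in GFP and 34.5, 35.9 and 33.6 in CRE, a log2 fold change of -0.72 (SE 0.08, edgeR adjusted p = 5.36e-05). The groups did not overlap, and since counts cover the whole gene, transcripts that lack the floxed exons are counted too. Libraries held between 17002126 and 20343590 counts. Of 10 fibroblast markers, all were detected and 10 fell, their summed level being between 41120 and 42430 CPM in GFP and between 22530 and 24610 CPM in CRE. Of 10 endothelial markers 9 fell (405.5 to 452.6 CPM in GFP, 195.2 to 225.8 in CRE), as did 6 of 10 smooth muscle and pericyte markers, with 1 higher (1077 to 1235 against 912.7 to 930.1 CPM), and 3 of the 6 macrophage and leukocyte markers tested of 10 (58.0 to 66.0 against 34.4 to 37.7 CPM). No cardiomyocyte marker of 10 reached the level needed for a test, 2 of them were at 0 in every library, and the highest count of any was 10. Of all tested genes 25.7% fell and 25.5% rose. These marker levels moved with the groups, and their part in the values below was not tested. In bulk RNA, fewer cells of a type and less RNA per cell cannot be told apart.

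Of the 88 genes, 67 had enough counts to be tested. Transcripts of the elongation factor genes Eef1a1, Eef2, Eef1g and Eef1b2, of Eif4b and Eif5a and of 4 subunits of eIF3 were lower in CRE on every scale tried, while the genes for eIF2 kinases and for eIF2B were higher or did not pass the test. After scaling by TMM, which sets the bulk of genes to no change, 28 factor genes fell and 11 rose (edgeR's quasi-likelihood test, adjusted p under 0.05), and 7 rose without GFP replicate 2 or without CRE replicate 3. With all libraries, the 28 lower genes were 41.8% of those tested, against a background of 25.7% of all 12862 tested genes. The 11 higher genes were 16.4% against 25.5%. Shares of all genes in the fits without a library are not given here. The 3 CRE libraries all lay below the 3 GFP libraries for 29 factor genes, or 43.3% against 29.6% of all tested genes, and all above them for 12, or 17.9% against 30.0%. At the threshold the study used, a fold above 1.5 or below 0.66 together with an unadjusted p below 0.05, 8 fell (11.9% against 10.3%) and 1 rose (1.49% against 7.52%), so most of the changes were smaller than 1.5-fold.

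The split between lower and higher depended on how the libraries were scaled. With library size alone, 17 factor genes fell and 25 rose, 25.4% and 37.3% of those tested, beside backgrounds of 16.2% and 43.0%. On the deposited FPKM values (fragments scaled by transcript length and depth) 15 fell and 21 rose, 22.4% and 31.3% beside 14.9% and 38.7%. The median log2 fold change of the factor genes was -0.09 with TMM, where that of all genes was 0.01, and 0.07 with library size alone, where that of all genes was 0.17, so it lay 0.10 below all genes on either scale. On log2(FPKM + 1) it lay 0.07 below. Called in the same direction under TMM, RLE, upper-quartile and library-size scaling and on FPKM were 15 lower genes (22.4% against 14.3% of all tested genes) and 11 higher genes (16.4% against 24.6%). The lower genes were Eef1a1, Eef1a2, Eef1akmt3, Eef1b2, Eef1g, Eef2, Eef2k, Eif2s2, Eif3c, Eif3e, Eif3f, Eif3h, Eif4a1, Eif4b and Eif5a, and the higher genes Eef1aknmt, Eif1ad, Eif2ak1, Eif2ak3, Eif2ak4, Eif2b1, Eif2b2, Eif2b5, Eif2d, Eif4e3 and Eif4ebp2. Of the higher genes, Eef1aknmt, Eif1ad, Eif2ak4 and Eif4e3 lost their calls in 4 to 6 of the 6 fits that left out a library. The plot of all tested factor genes by complex shows both scalings.

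**Figure D1:**
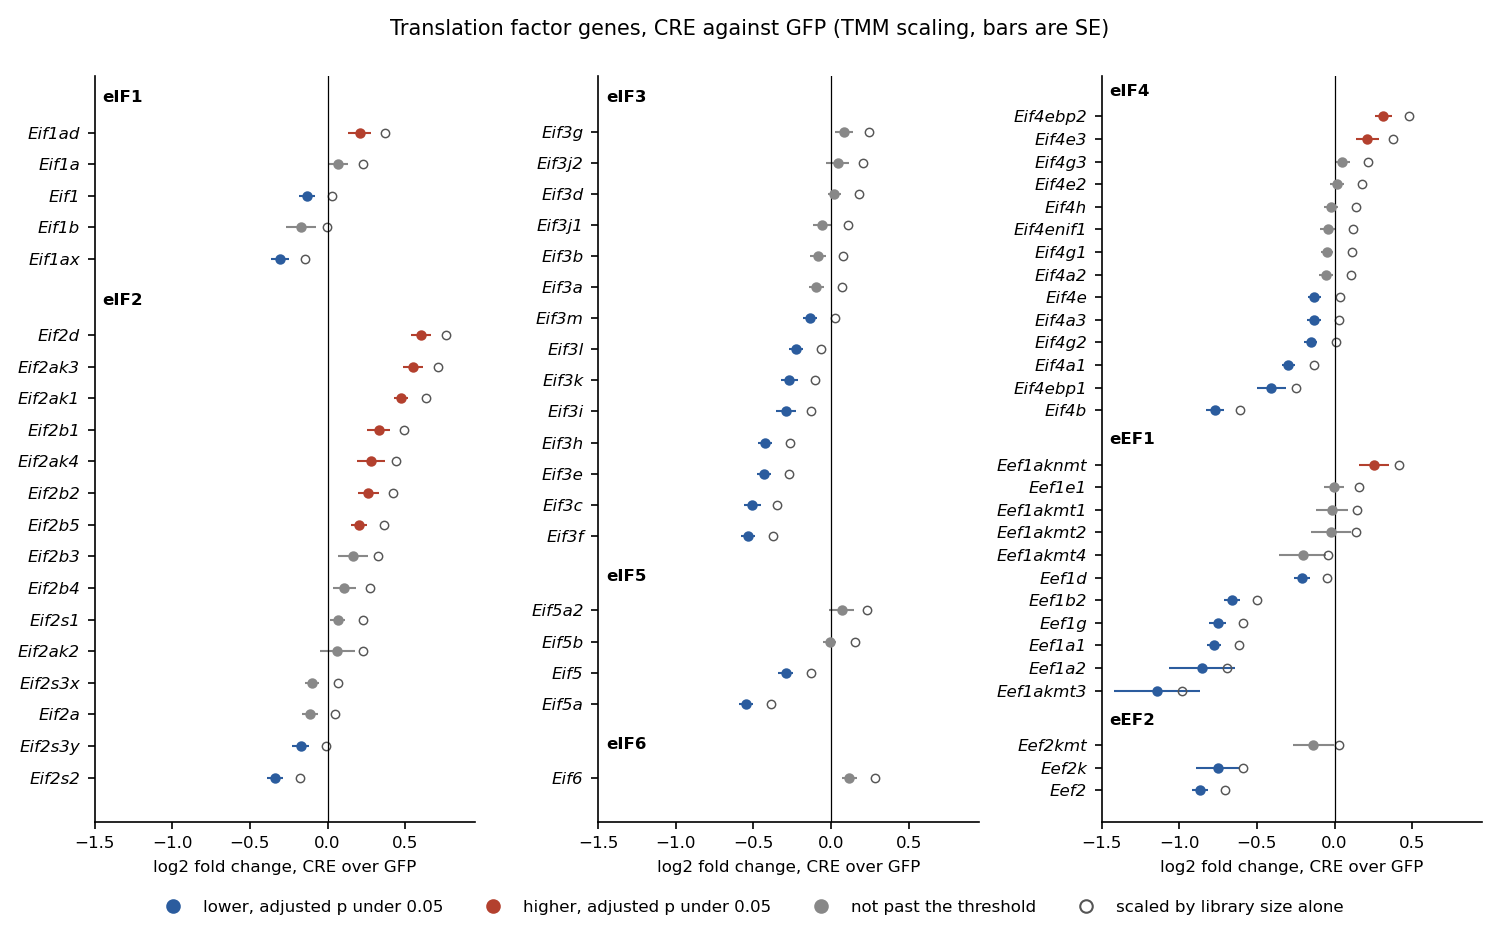
Log2 fold change (CRE over GFP, horizontal axis) of the 67 tested factor genes, 3 libraries a group, sorted within each complex. Filled points are TMM-scaled edgeR values with their SE, coloured by call, and open circles are the values with library size alone, which lie to the right by about the same amount for every gene and cross 0 for genes such as Eif4g2, Eif1 and Eif3m. Eef2, Eef1a1, Eif4b and Eef1g stay far below 0 on either scale and Eif2d, Eif2ak3 and Eif2ak1 far above it.

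Shares of all counts in a library are values on the scale of library size alone, on which the median gene was higher in CRE by 0.17. On it the 88 genes took 2.24%, 2.13% and 2.19% in GFP and 1.77%, 1.71% and 1.79% in CRE. The groups did not overlap, and the CRE mean amounted to 80.4% of that in GFP (exact permutation p = 0.1, two-sided, the smallest that 3 against 3 libraries allow). Most of that difference lay in Eef1a1 and Eef2. Eef1a1 alone fell from a mean of 0.854% to 0.559% of counts and Eef2 from 0.265% to 0.162%. The other 86 genes together took 1.09%, 1.04% and 1.07% in GFP and 1.04%, 1.03% and 1.04% in CRE, and here the groups overlapped, while on the TMM scale they were apart and lower in CRE, at 11569, 11020 and 11254 CPM against 9872, 9680 and 9866. The genes with eIF names took 0.939% ± 0.022 of counts in GFP and 0.944% ± 0.004 in CRE (SD, n = 3, exact permutation p = 0.7), with overlap, while those with eEF names took 1.25% ± 0.036 and 0.814% ± 0.036, without overlap. On the TMM scale both sets were lower in CRE without overlap, at 10190, 9711 and 9889 CPM against 8970, 8845 and 8961 for eIF names and at 13544, 12778 and 13245 against 7811, 7286 and 7997 for eEF names. Among complexes, the eIF3 and eIF5 genes took smaller shares in every CRE library (94.0% and 89.9% of the GFP mean) and the eIF2 genes and Eif6 larger ones (114% and 121%), whereas eIF1 and eIF4 overlapped. On the TMM scale the summed eIF2 level overlapped (1441 to 1474 CPM in GFP, 1456 to 1507 in CRE) and that of eIF4 was lower without overlap (4397 to 4596 against 4019 to 4096).

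**Figure D2:**
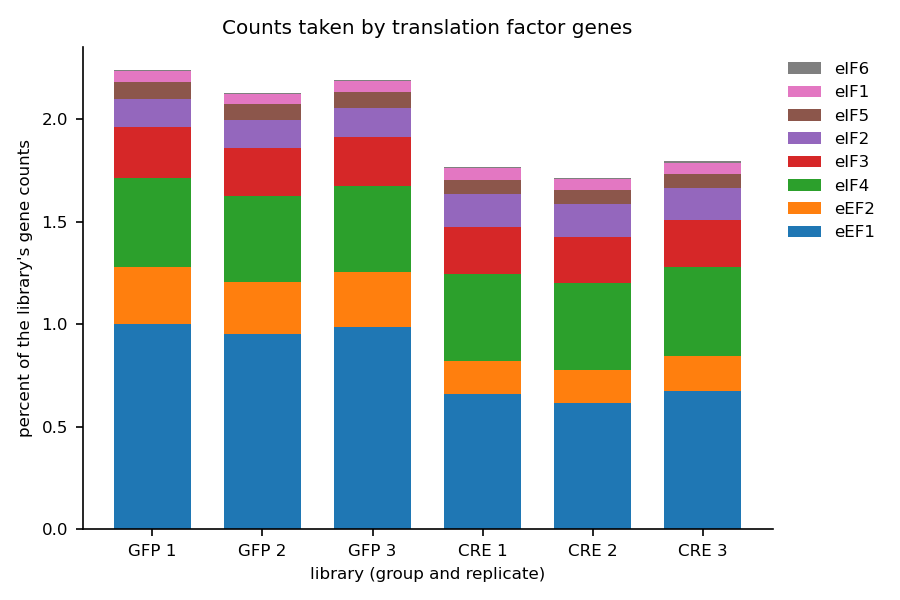
Percent of each library's gene counts (vertical axis, from 0) taken by the factor genes of each complex, stacked, for the 3 GFP and 3 CRE libraries. The full bars reach 2.13% to 2.24% in GFP and 1.71% to 1.79% in CRE, and the blue and orange eEF1 and eEF2 segments hold most of the difference.

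Most of the lowest log2 fold changes belonged to genes with eEF names. Eef2 (chr10:81176631-81182498, plus strand), the translocase, gave 2920, 2683 and 2798 CPM in GFP and 1524, 1460 and 1625 in CRE. Every CRE library lay below every GFP library, and the mean fell to 54.9% (log2 fold change -0.87, SE 0.05, edgeR adjusted p = 7.99e-07). Eef1a1 (chr9:78478449-78489151, minus strand), the main tRNA carrier, gave 9251, 8792 and 9087 CPM in GFP and 5386, 4996 and 5468 in CRE, a fall to 58.4% (log2 fold change -0.78, SE 0.04, edgeR adjusted p = 6.7e-07). It had the highest level of all factor genes, with a mean of 4820 FPKM in GFP, followed by Eef2 with 857 FPKM and Eef1b2 with 382 FPKM. Eef1a1 has many processed copies in the genome, and reads shared with them could be counted either way. Its muscle and neuron paralogue Eef1a2 was at 3.92, 5.52 and 4.10 CPM in GFP and 2.90, 1.94 and 2.64 in CRE, also lower (log2 fold change -0.85, SE 0.21, edgeR adjusted p = 0.00655), from 35 to 98 counts a library.

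The 3 subunits of the eEF1B exchange complex did not fall by the same amount. Eef1g (chr19:8967041-8978479, plus strand), the gamma subunit, gave 730, 701 and 711 CPM in GFP and 431, 390 and 450 in CRE (log2 fold change -0.75, SE 0.06, edgeR adjusted p = 3.18e-06). Eef1b2 (chr1:63176825-63180486, plus strand), which holds exchange activity, gave 416, 391 and 430 CPM against 265, 250 and 267 (log2 fold change -0.66, SE 0.05, edgeR adjusted p = 3.69e-06). Both were without overlap. Eef1d, the delta subunit, was closer to the controls, with 120, 108 and 114 CPM against 99.2, 100 and 96.2 (log2 fold change -0.21, SE 0.05, edgeR adjusted p = 0.00547), and its call was lost with library size alone and on FPKM. Within each library, the log2 ratio of the summed eEF1B counts to those of eEF1A was -2.87, -2.87 and -2.86 in GFP and -2.76, -2.76 and -2.75 in CRE, higher by 0.11 in CRE without overlap (exact permutation p = 0.1).

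Of the genes for enzymes that modify elongation factors, 2 fell and 1 rose of 7 tested, near the 25.7% and 25.5% of all tested genes. Eef2k (chr7:120842831-120907450, plus strand), the kinase that inhibits eEF2, gave 29.8, 22.6 and 21.1 CPM in GFP and 16.8, 13.9 and 12.9 in CRE, a log2 fold change of -0.75 (SE 0.14, edgeR adjusted p = 0.00125). Among 5 tested eEF1A methyltransferase genes, Eef1akmt3 fell from 3.36, 3.21 and 2.08 CPM to 1.67, 0.941 and 1.27 (log2 fold change -1.14, SE 0.28, edgeR adjusted p = 0.00643), on only 17 to 57 counts a library. Eef1aknmt, which codes for an enzyme that methylates eEF1A at its start and at a lysine, rose from 13.1, 13.2 and 12.7 CPM to 17.3, 14.2 and 14.9 (log2 fold change 0.25, SE 0.10, edgeR adjusted p = 0.0457), a call that was lost by DESeq2 and in 5 of the 6 fits without a library. Eef1akmt1, Eef1akmt2, Eef1akmt4 and the eEF2 methyltransferase gene Eef2kmt did not pass the test and their groups overlapped. Eef1e1, named for its likeness to eEF1 but part of the aminoacyl-tRNA synthetase complex, lay at 28.1 CPM in GFP and 28.0 in CRE. Eef1akmt3 shares exonic bases with Mettl1 on the other strand and Eef2k with an antisense gene, and whether the counting used strand is not stated.

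Many elongation factor mRNAs belong to the TOP mRNAs, whose 5′ end is a C followed by a run of pyrimidines, and whose translation mTORC1 controls through LARP1. The first 20 bases of annotated GENCODE M21 coding transcripts (GRCm38) of 9 factor genes are shown here, since 6 of them belong to the list of factor genes known as TOP mRNAs and 3 are the genes that rose most. Capitals mark a C at the first base followed by at least 4 C or T. Where any coding transcript of a gene opens this way, such a transcript was picked. The choice was from 2 coding transcripts for Eef1b2 and from 15 for Eef1d, while Eif3f has 1.
Eef1b2, chr1:63177130-63177149, plus strand: CTTTTTTTCCCTCagcgctg
Eef1d, chr15:75909287-75909306, minus strand: CTCTCCTTTgcagtcctgag
Eif3f, chr7:108934417-108934436, plus strand: CTCTTTCTCggcaagatggc
Eef2, chr10:81176631-81176650, plus strand: gttgacgtcagcggtctctt
Eef1a1, chr9:78481705-78481724, minus strand: ttcccgagggtgggggagaa
Eif4b, chr15:102073773-102073792, plus strand: cgccgcgccaccccctcgcg
Eif2d, chr1:131153181-131153200, plus strand: acctggcgctgcgtcagttc
Eif2ak3, chr6:70844515-70844534, plus strand: cggaaccctcgctcaatggg
Eif2ak1, chr5:143817788-143817807, plus strand: ttccgttggctcttgtgtta

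All 9 factor genes of the TOP list fell (Eef1a1, Eef1b2, Eef1d, Eef1g, Eef2, Eif3e, Eif3f, Eif3h and Eif4b), with a median log2 fold change of -0.66, where the median of all genes was 0.01. All but Eef1d kept the call on every scale. This list, like the others, was made with earlier results of these data known, so its count is no independent test. Of these 9, only Eef1b2, Eef1d and Eif3f open with the tract in at least 1 annotated coding transcript, and Eef2, Eef1a1 and Eif4b, which fell further than Eef1d, do not. Over all tested factor genes the tract opened 10 of 67 (14.9%), beside 5.91% of 12797 tested genes with an annotated coding transcript. It opened 5 of the 28 factor genes that fell (17.9%), 1 of the 11 that rose (9.09%) and 4 of the 28 others (14.3%). Outside the TOP list, the tract opened Eif4g2, Eif3m, Eif2s3x, Eif4a2, Eif2s1, Eif2b4 and Eef1aknmt. Their log2 fold changes were -0.15, -0.14, -0.10, -0.05, 0.07, 0.11 and 0.25. An annotated start need not be the start used in these cells, so a transcript without the letters at its first base may still be a TOP mRNA. Of 8 other genes known for TOP mRNAs all 8 fell, with a median of -0.60, among them Rack1, a ribosomal scaffold protein (-0.76), Hnrnpa1, a splicing factor (-0.75), and Pabpc1, the main poly(A)-binding protein (-0.66). Of 80 tested genes for cytosolic ribosomal proteins, 77 fell (72 on every scale), with a median of -0.59, where 25.7% of all tested genes fell (14.3% on every scale).

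**Figure D3:**
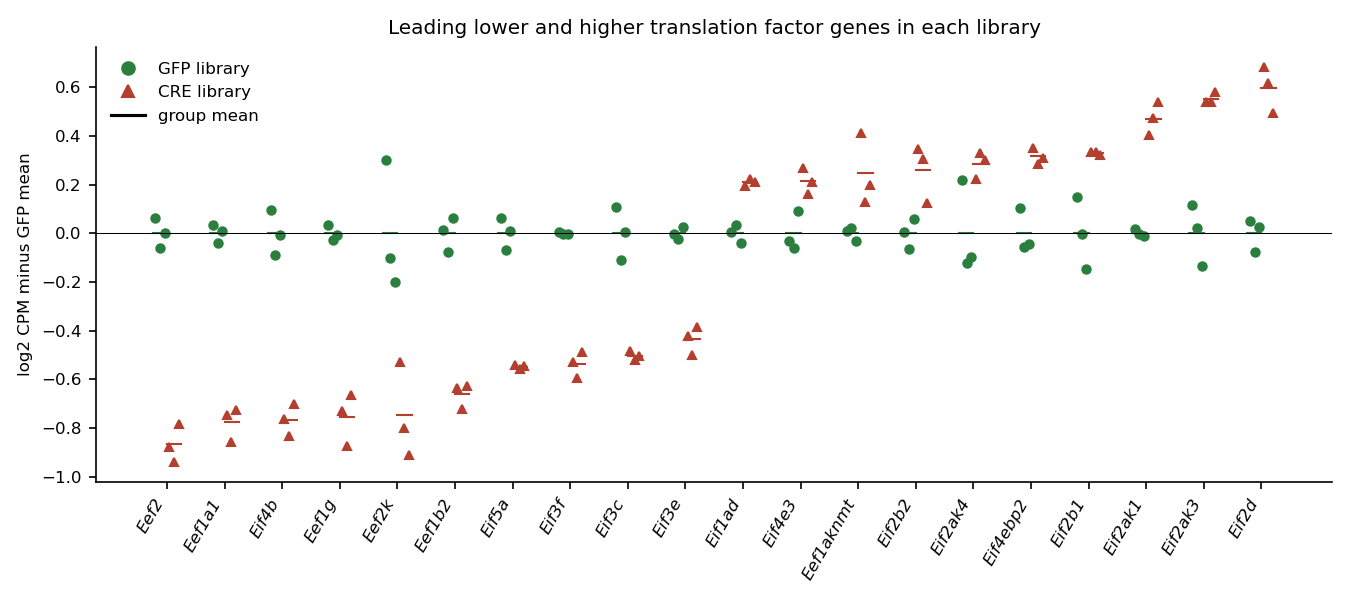
Log2 CPM minus the GFP mean (vertical axis) in each of the 6 libraries for the 10 lowest and 10 highest factor genes that passed the test with separate groups and a mean of at least 10 CPM. Circles are GFP libraries, triangles CRE libraries and short lines group means. The triangles lie between -0.38 and -0.94 for the lower genes and up to 0.68 for the higher genes, and GFP replicate 1 lies above the other GFP libraries for Eef2k and Eif2ak4.

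The complex eIF3, which holds the small ribosomal subunit open for mRNA, showed unequal subunits. It was counted here as 14 genes, since Eif3j1 and Eif3j2 code for near-identical proteins and reads between them cannot be divided with certainty. Of the 14, 8 fell and 0 rose with TMM by edgeR (0 also at an unadjusted p under 0.05 and by DESeq2), and with library size alone 4 fell and 3 rose. Of all tested genes 25.7% fell and 25.5% rose with TMM, and 16.2% fell and 43.0% rose with library size alone. Of the 8 subunits that form the structural octamer, 7 fell, 4 of them on every scale, where 14.3% of all tested genes fell. Eif3f (chr7:108934417-108942951, plus strand) gave 194, 193 and 193 CPM in GFP and 134, 128 and 138 in CRE (log2 fold change -0.54, SE 0.04, edgeR adjusted p = 7e-06). Eif3c (chr7:126546455-126566411, minus strand), a core scaffold subunit, gave 505, 434 and 470 CPM against 335, 327 and 331 (log2 fold change -0.51, SE 0.06, edgeR adjusted p = 4.15e-05). Eif3e (chr15:43250058-43282719, minus strand) gave 202, 199 and 206 CPM against 151, 143 and 155 (log2 fold change -0.43, SE 0.05, edgeR adjusted p = 3.16e-05), and Eif3h fell by nearly the same amount, from 217, 203 and 212 CPM to 158, 152 and 161 (log2 fold change -0.43). None of these groups overlapped.

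The smaller falls in eIF3 were scale-dependent. Eif3k (-0.27), Eif3l (-0.23) and Eif3m (-0.14) of the octamer and Eif3i (-0.29) outside it passed the test with TMM and not with library size alone, where Eif3m turned to 0.02. The call of Eif3m was also lost by DESeq2 and in 4 of the 6 fits without a library. Eif3a, the largest subunit, gave 618, 581 and 568 CPM against 560, 536 and 558 (log2 fold change -0.09, edgeR adjusted p = 0.113), with the CRE libraries all below the GFP libraries by a small gap. Eif3b, Eif3d, Eif3g and the 2 Eif3j genes lay between -0.08 and 0.08, and their groups overlapped.

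A subunit's share of the summed eIF3 counts within a library does not depend on scaling between libraries. This share was lower in CRE for Eif3f (log2 difference -0.29), Eif3c (-0.25), Eif3e (-0.18) and Eif3h (-0.18), without overlap. It was higher without overlap for Eif3g (0.33), Eif3j2 (0.29), Eif3d (0.27), Eif3j1 (0.19), Eif3b (0.17), Eif3a (0.16) and Eif3m (0.11), and it overlapped for Eif3i, Eif3k and Eif3l. The log2 ratio of the octamer's summed counts to those of the other subunits was 1.680, 1.687 and 1.743 in GFP and 1.448, 1.416 and 1.498 in CRE, lower by 0.25 (exact permutation p = 0.1). Shares of a whole are tied to each other, so a lower share of some subunits raises that of the rest. These ratios were chosen after values had been seen.

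**Figure D4:**
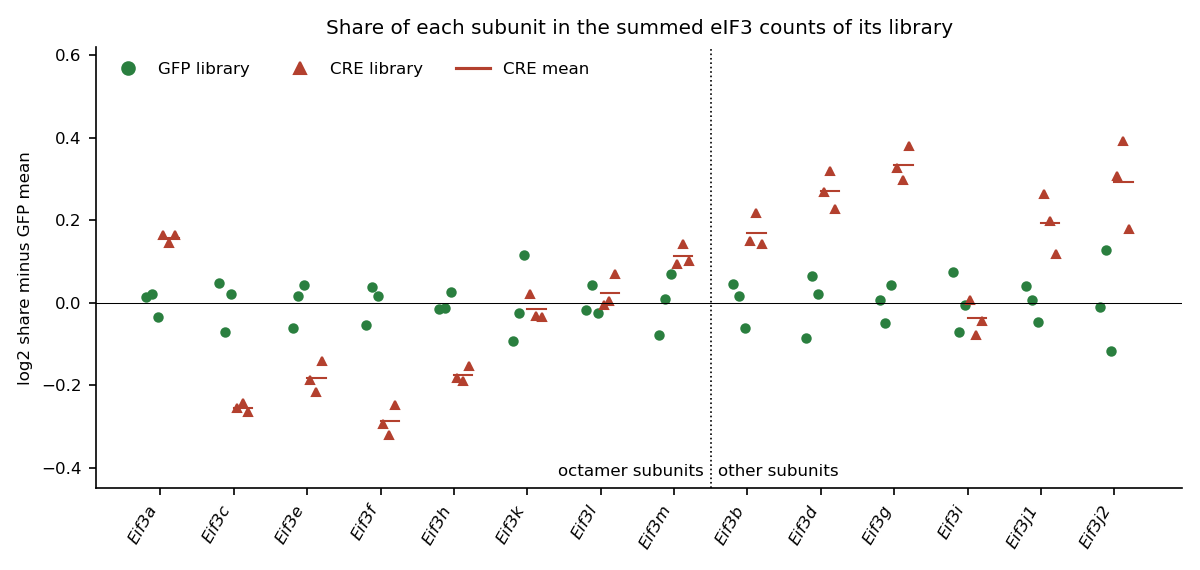
Log2 share of each of 14 subunit genes in the summed eIF3 counts of its library, minus the GFP mean (vertical axis), with GFP libraries as circles, CRE libraries as triangles and the CRE mean as a line. The dotted line divides the 8 octamer subunits from the others. Eif3c, Eif3e, Eif3f and Eif3h lie below 0 in all CRE libraries by 0.18 to 0.29 on average, and 7 subunits lie above the GFP libraries.

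Among the tested genes with eIF4 names, the largest change was in transcripts of Eif4b, which codes for the cofactor that stimulates the eIF4A helicase. Eif4b (chr15:102073773-102097173, plus strand) gave 371, 327 and 346 CPM in GFP and 205, 195 and 214 in CRE, a fall to 58.7% without overlap (log2 fold change -0.77, SE 0.06, edgeR adjusted p = 3.41e-06). Eif4a1, the main helicase, gave 569, 548 and 561 CPM against 456, 447 and 462 (log2 fold change -0.30, SE 0.04, edgeR adjusted p = 0.000162). These were the only 2 of the 6 lower eIF4 calls that held on every scale. Eif4h, a cofactor related to Eif4b, did not follow it, with 187, 183 and 195 CPM against 191, 183 and 183 (log2 fold change -0.02, edgeR adjusted p = 0.71).

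Transcripts of the cap-binding protein and the scaffolds changed little. Eif4e, which binds the cap, gave 89.2, 85.0 and 88.8 CPM in GFP and 81.4, 78.5 and 80.6 in CRE (log2 fold change -0.13, edgeR adjusted p = 0.0324), and Eif4a3, a helicase of the exon junction complex, had the same size of change (-0.13, adjusted p = 0.0379). Both calls were lost in most fits without a library, and both values turned slightly positive with library size alone (0.03 and 0.03). Eif4g1, the main scaffold, lay at 1041 CPM in GFP and 1006 in CRE, and Eif4g3 at 248.2 and 256.9, both with overlap. Eif4g2, a scaffold-like protein that does not bind eIF4E, gave 1443, 1352 and 1409 CPM against 1234, 1271 and 1276 (log2 fold change -0.15, edgeR adjusted p = 0.0102), and this turned to 0.01 with library size alone and 0.04 on FPKM. Eif4e3, a cap-binding relative of eIF4E, rose from 16.8, 16.5 and 18.3 CPM to 20.7, 19.2 and 19.9 (log2 fold change 0.21, edgeR adjusted p = 0.0402), a call lost in 4 of the 6 fits without a library. Eif4a2, Eif4e2 and Eif4enif1 had overlapping groups and did not pass.

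Transcripts of the 2 tested inhibitors that sequester eIF4E moved apart. Eif4ebp1 gave 75.5, 55.7 and 68.3 CPM in GFP and 51.3, 48.0 and 51.0 in CRE (log2 fold change -0.41, SE 0.09, edgeR adjusted p = 0.00461), a call that was lost on FPKM. Eif4ebp2 (chr10:61428491-61452661, minus strand) gave 93.5, 83.6 and 84.4 CPM against 111, 106 and 108 (log2 fold change 0.31, SE 0.05, edgeR adjusted p = 0.000684). The log2 ratio of Eif4ebp2 to Eif4ebp1 counts was 0.31, 0.59 and 0.31 in GFP and 1.12, 1.14 and 1.08 in CRE, a difference of 0.71 (exact permutation p = 0.1). The relative Eif4ebp3 had 3, 6 and 2 counts in GFP and 0 in each CRE library, where a count of 0 allows up to 3, too few to test.

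Among the genes with eIF2 names, 7 of 15 rose and 2 fell, beside 25.5% and 25.7% of all tested genes. With library size alone, 10 rose and 1 fell, beside 43.0% and 16.2% of all tested genes. Subunits and regulators of eIF2 differed. Of the 4 genes for eIF2 itself 2 fell and 0 rose by edgeR (0 also at an unadjusted p under 0.05 and by DESeq2), with 1 higher with library size alone. Eif2s2, the beta subunit, gave 337, 299 and 321 CPM in GFP and 259, 244 and 253 in CRE (log2 fold change -0.34, SE 0.05, edgeR adjusted p = 0.000387). Eif2s3y, the Y-linked copy of the gamma subunit, fell by 0.17 on the log2 scale, a call lost with library size alone, on FPKM, by DESeq2 and in 4 of the 6 fits without a library, so DESeq2 left 1 lower subunit. Eif2s1, the alpha subunit that the kinases phosphorylate, lay at 124.2 CPM in GFP and 130.0 in CRE with overlap, and Eif2s3x at 260.1 and 243.1 (edgeR adjusted p = 0.0985).

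Among the kinases of eIF2, 3 of 4 rose on every scale, as did 24.6% of all tested genes. Eif2ak3 (chr6:70844515-70905245, plus strand), which codes for PERK, the sensor of unfolded protein in the endoplasmic reticulum, gave 49.9, 46.7 and 41.9 CPM in GFP and 66.9, 66.9 and 68.8 in CRE (log2 fold change 0.55, SE 0.06, edgeR adjusted p = 6.08e-05). Eif2ak1 (chr5:143817788-143904251, plus strand), which codes for the haem-regulated kinase HRI, gave 78.0, 76.9 and 76.6 CPM against 102, 107 and 112 (log2 fold change 0.47, SE 0.05, edgeR adjusted p = 2.1e-05). Every CRE library lay above every GFP library for both. Eif2ak4, which codes for the amino acid sensor GCN2, gave 31.3, 24.7 and 25.1 CPM against 31.4, 33.8 and 33.1 (log2 fold change 0.28, SE 0.09, edgeR adjusted p = 0.0232), where GFP replicate 1 lay just under the lowest CRE library and 4 of the 6 fits without a library lost the call. Eif2ak2, which codes for the double-stranded RNA sensor PKR, gave 228, 322 and 318 CPM against 312, 321 and 276, did not pass the test (log2 fold change 0.06, edgeR adjusted p = 0.671), and turned to -0.08 without GFP replicate 1.

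The genes for eIF2B, the exchange factor that reloads eIF2 with GTP and is blocked by phosphorylated eIF2, rose in 3 of 5 cases on every scale, where 24.6% of all tested genes rose. Eif2b1 gave 29.7, 26.7 and 24.2 CPM in GFP and 33.7, 33.7 and 33.5 in CRE (log2 fold change 0.33, SE 0.08, edgeR adjusted p = 0.00453). Eif2b2 (0.26, edgeR adjusted p = 0.00895) and Eif2b5 (0.20, adjusted p = 0.00737) were the others, and Eif2b3 (0.16) and Eif2b4 (0.11) did not pass with TMM and did with library size alone. Within each library, the log2 ratio of the summed eIF2B counts to those of eIF2 was -2.28, -2.26 and -2.28 in GFP and -1.90, -1.82 and -1.91 in CRE, a difference of 0.39 (exact permutation p = 0.1). The ratio of the summed kinase counts to those of eIF2 was higher by 0.39 without overlap, and by 0.27 without GFP replicate 1. Eif2ak2, which did not pass the test, made up between 56.4% and 68.9% of those kinase counts. These ratios were chosen after values had been seen. Of the 2 carriers that can bring tRNA without eIF2, Eif2d (chr1:131153181-131187658, plus strand) had the highest log2 fold change of all factor genes, from 37.9, 34.7 and 37.3 CPM to 58.8, 56.1 and 51.5 (0.60, SE 0.06, edgeR adjusted p = 3.65e-05), while Eif2a did not pass (-0.11, edgeR adjusted p = 0.107). Eif2d shares exonic bases with Rassf5, Eif2ak1 with Aimp2 and Eif2ak3 with Gm43292, all on the other strand.

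The kinase genes can be set beside a list of 12 genes of eIF2α dephosphorylation and the integrated stress response, of which 11 were tested, 1 rose and 6 fell (4 on every scale), with a median log2 fold change of -0.16. Of all tested genes 25.5% rose and 25.7% fell (14.3% on every scale). Atf4, the transcription factor whose translation rises when eIF2α is phosphorylated, gave 219, 195 and 206 CPM in GFP and 157, 162 and 149 in CRE (log2 fold change -0.41, edgeR adjusted p = 0.000138). Trib3, a target of ATF4, fell from 35.9, 20.9 and 25.3 CPM to 14.0, 13.3 and 11.9 (-1.06, edgeR adjusted p = 0.00056), and Dnajc3, an inhibitor of PERK and PKR, fell by 0.42. Atf3, a stress-induced repressor, rose from 2.86, 2.59 and 2.65 CPM to 11, 11.4 and 10.1 (2.003, edgeR adjusted p = 1.13e-06). Ppp1r15a and Ppp1r15b, which direct the phosphatase to eIF2α, did not pass (-0.13 and 0.03). The gene of the list that was not tested was Ddit3, with 1 count in GFP replicate 3 and 0 in the other libraries. Whether reads of Ddit3 were counted under another entry was not examined. Atf4 protein and phosphorylated eIF2α were not measured here.

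The genes with eIF1, eIF5 and eIF6 names act mostly in start codon selection and subunit joining. Eif5a (chr11:69916714-69921958, minus strand), which relieves stalled ribosomes, gave 370, 338 and 357 CPM in GFP and 244, 241 and 243 in CRE (log2 fold change -0.55, SE 0.05, edgeR adjusted p = 6.95e-06), on every scale. Of the 9 genes that make its hypusine and the diphthamide of eEF2, 3 fell, namely Dph6 (-0.52), Dohh (-0.49) and Dhps (-0.37), a share near the 25.7% of all tested genes, and with library size alone 2 fell and 2 rose, beside 16.2% and 43.0% of all tested genes. Eif5, which triggers GTP hydrolysis by eIF2, gave 304, 278 and 280 CPM against 231, 236 and 238 (-0.29, edgeR adjusted p = 0.000566), and Eif1ax, which codes for eIF1A, gave 79.5, 73.2 and 82.7 CPM against 60.8, 65.1 and 64.3 (-0.31, edgeR adjusted p = 0.00121). The call of Eif5 was lost on FPKM, and that of Eif1ax also with library size alone. Eif1 lay near the threshold with overlapping groups (-0.13, edgeR adjusted p = 0.0495) and turned to 0.03 with library size alone. Eif1ad, an eIF1A-domain protein, rose from 15.9, 16.2 and 15.4 CPM to 18.1, 18.5 and 18.3 (0.21, edgeR adjusted p = 0.0355), a call lost in each of the 6 fits without a library. Eif5b, Eif5a2, Eif1a and Eif1b overlapped, and Eif6, which keeps ribosomal subunits apart, was 50.1, 48.5 and 50.3 CPM against 55.1, 52.3 and 54.3 without overlap (0.12, edgeR adjusted p = 0.0656).

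Ratios between related factors were taken for 12 pairs within each library. The groups did not overlap for 8 pairs, each with the smallest exact permutation p of 0.1. Separate groups are common in these data, since single genes were apart in 30.0% (higher) and 29.6% (lower) of all tested genes, so the count of pairs is no result in itself. After Eif4ebp2 over Eif4ebp1, the next ratios were Eif5a2 over Eif5a, at -3.97, -4.08 and -4.10 in GFP and -3.41, -3.40 and -3.48 in CRE (log2 difference 0.62), and Eif1a over Eif1ax, at 1.233, 1.137 and 1.093 against 1.667, 1.422 and 1.502 (0.38). Eif4e3 over Eif4e (0.34), Eif4a2 over Eif4a1 (0.24), Eif4e2 over Eif4e (0.14) and Eif4g3 over Eif4g1 (0.10) were higher in every CRE library, and Eif4g2 over Eif4g1 was lower (-0.10). In 4 of these pairs, the member in the denominator fell by the count test with TMM and the other did not pass it. These were Eif5a2 with Eif5a, Eif4a2 with Eif4a1, Eif1a with Eif1ax and Eif4e2 with Eif4e. With library size alone, Eif5a2 (0.23), Eif1a (0.23) and Eif4e2 (0.18) were called higher, and Eif1ax and Eif4e were not called. Eef1a2 over Eef1a1, Eif1b over Eif1, Eif2s3y over Eif2s3x and Eif3j2 over Eif3j1 overlapped between groups. Eif1a and Eif1ax code for nearly the same protein, so reads shared between them are uncertain.

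**Figure D5:**
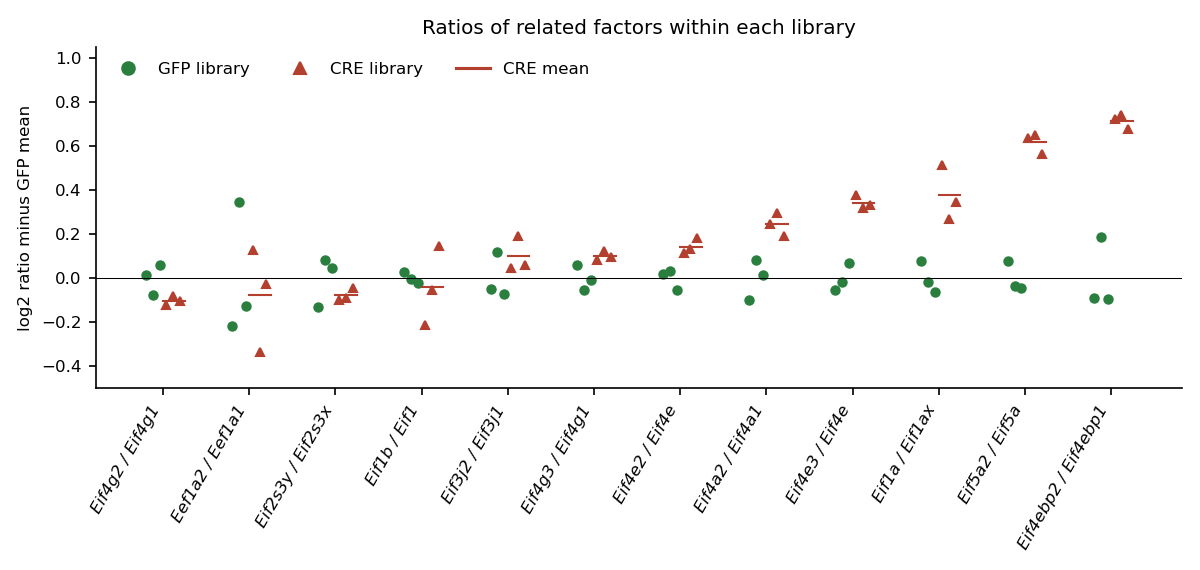
Log2 ratio of the counts of 12 pairs of related factor genes within each library, minus the GFP mean (vertical axis), sorted by the CRE mean. Circles are GFP libraries, triangles CRE libraries and lines CRE means. The ratio rises by 0.71 for Eif4ebp2 over Eif4ebp1 and by 0.62 for Eif5a2 over Eif5a, and 4 pairs on the left and in the middle overlap.

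The other lists of the translation machinery held called genes in both directions, as did all tested genes, of which 25.5% rose and 25.7% fell. Among 16 genes of mTORC1 and of kinases that act on initiation factors, 8 rose (7 on every scale) and 2 fell (1 on every scale), with a median log2 fold change of 0.16. Mknk2 and Mknk1, the kinases that phosphorylate eIF4E, rose by 0.72 and 0.55 and Rps6kb2 by 0.58, Mtor by 0.36 and Rptor by 0.37 (edgeR adjusted p = 5.91e-06, 6.83e-05, 0.000225, 0.00018 and 0.000417), while Rps6kb1, which codes for S6 kinase 1, fell by 0.36 (edgeR adjusted p = 0.000139). Among 15 poly(A)-binding proteins and partners of the cap complex, 4 rose and 4 fell, with Pabpc1 at 1379, 1291 and 1290 CPM in GFP and 825, 787 and 888 in CRE (-0.66), Pabpc4 at -0.55 and Paip2b, an inhibitor of poly(A)-binding protein, at 0.56. With library size alone 9 of these 15 rose and 3 fell, beside 43.0% and 16.2% of all tested genes. On every scale 4 rose and 2 fell. Of 9 genes of termination, recycling and rescue, 2 rose (Gspt2, 0.35, and Hbs1l, 0.21) and 2 fell (Etf1, -0.15, and Gspt1, -0.13), and no fall held on every scale. Of 9 mitochondrial translation factors, 3 rose, among them the elongation factor Gfm2 (0.50), and 2 fell, the release factor Mtrf1 (-0.81) and the recycling factor Mrrf (-0.69). With TMM, the shares in the poly(A), termination and mitochondrial lists lay near those of all tested genes.

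The 21 factor genes that were not tested were nearly silent. They were Eif4ebp3, Eif4e1b, Eif4a3l1, Eif4a3l2, the readthrough gene Eef1ece2 and 16 numbered copies of Eif1ad, and 15 of them had a count of 0 in every library. The highest count of the others was 9, for Eef1ece2 in CRE replicate 3, and that gene shares its exons with Eef1akmt4 and Ece2. Copies of this kind have near-identical sequence, so reads from them may have been lost or given to a relative. Exons of 19 tested factor genes overlap an exon on the other strand, among them Eef1b2 with Ndufs1 and Eif1ad with Banf1.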

How the data were processed

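RNA-seq was performed on 6 libraries, 3 per group, grouped by the sample titles. According to the study's methods section, the authors cleaned reads by Trimmomatic and mapped them by HISAT2 to GRCm38, then made counts per gene with HTSeq-count and FPKM with Cufflinks, and DESeq was their test. Tool versions and the strand setting of counting are not given in the sources used here, and the labels and methods name different RNA and library kits. The authors deposited raw counts and FPKM per gene and library. The table the authors deposited also holds group means, a log2 fold change, a p-value and an FDR that their own comparison made, and none of these was used.

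All 22063 rows named a gene. Counts were analysed with edgeR 4.0.16 in R 4.3.3. The function filterByExpr (at least 10 counts, and 15 in total) passed 12862 genes, and the TMM scaling factors were 0.944 to 0.947 in GFP and 1.05 to 1.06 in CRE. The groups were compared by the quasi-likelihood test, two-sided, adjusted by Benjamini-Hochberg over every tested gene. An SE was taken as the size of the log2 fold change over the root of F. CPM are counts relative to the scaled library size, and per-length levels are the deposited FPKM. Ratios within a library are log2 of counts with 0.5 added. Single values were compared by an exact permutation test. Alternatives were RLE, upper-quartile and library-size scaling, other count filters, DESeq2 1.42.0, limma-voom and limma 3.58.1 on log2(FPKM + 1), a replicate block and leaving out each library. Simulated data with known changes were used to check the count test. Coordinates and transcript starts are from GENCODE M21, on the build the authors used, in which all 88 factor genes were found.

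The choice to describe translation factors, and the lists, were made with earlier results of these data known, while the rule for members uses the symbol and no measured value. Named are the 10 highest and 10 lowest factor genes with an adjusted p under 0.05, separate groups and a mean of at least 10 CPM, the members of 12 paralogue pairs, the 3 genes with the highest FPKM, and up to 3 called genes of each list by size of change. Any other gene was picked once values had been seen. Libraries of a group differed beyond counting noise (chi-square over its degrees of freedom from 4.05 to 12.1), so none was the same library deposited again, while a shared culture or RNA cannot be told from this. Figures were drawn with matplotlib 3.10.9.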

Additional observations from a re-analysis of the deposited data

How the results depend on the processing

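Over 15 alternative fits, 22 of the called factor genes kept direction and call in each, among them Eef2, Eef1a1, Eif4b, Eef1g, Eif5a, Eif3c, Eif3f, Eif2d, Eif2ak1 and Eif2ak3. Library size alone, which omits the TMM factors and so shifts every gene by the same amount, gave 25 higher and 17 lower factor genes (11 and 28 with TMM) and a median log2 fold change of 0.0686 in place of -0.09. It turned the sign of Eif4g2 (0.0095), Eif1 (0.0277), Eif3m (0.0245), Eif5b (0.1526), Eif4e (0.0332), Eif4a3 (0.0321), Eef1e1 (0.1566), Eif4h (0.1404), Eif2a (0.0499), Eef2kmt (0.026), Eif2s3x (0.0653), Eef1akmt1 (0.1435), Eif3a (0.0686), Eif4enif1 (0.121), Eif4g1 (0.113), Eef1akmt2 (0.1409), Eif3j1 (0.1066), Eif3b (0.0795) and Eif4a2 (0.1078). limma on log2(FPKM + 1) gave 21 higher and 15 lower and a median of 0.0684, and turned Eif4g2 (0.0416), Eif1 (0.0299), Eif3m (0.0231), Eif5b (0.1457), Eif4e (0.0819), Eif4a3 (0.0352), Eef1e1 (0.1423), Eif4h (0.1301), Eif2a (0.0057), Eif2s3x (0.0671), Eef1akmt1 (0.128), Eif3a (0.0684), Eif4enif1 (0.0844), Eif4g1 (0.1203), Eef1akmt2 (0.1965), Eif3j1 (0.0974), Eif3b (0.0672) and Eif4a2 (0.0892), and the cause was not tested. Upper-quartile factors turned Eif5b (0.0095), Eef1e1 (0.0135) and Eef1akmt1 (0.0005). The threshold of the study left 1 higher and 8 lower genes.

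Leaving out a library gave between 7 and 9 higher and between 23 and 26 lower factor genes, the lowest count of higher genes being 7 without GFP replicate 2 and 7 without CRE replicate 3, where Eef1aknmt, Eif1ad, Eif4e3 and Eif2ak4 lost their calls with fewer samples. Values crossed 0 for Eef1akmt2 (-0.1366 to 0.1183), Eif4e2 (-0.0069 to 0.0384), Eif5b (-0.0225 to 0.0201), Eef1e1 (-0.0416 to 0.0425), Eef1akmt1 (-0.0606 to 0.0661), Eif2ak2 (-0.0831 to 0.1453), Eif3j2 (-0.0246 to 0.0956) and Eif4h (-0.0445 to 0.0026), none of which passed the test with all libraries. RLE factors and limma-voom changed no call. DESeq2 lost 7 calls, giving 8 higher and 24 lower, a filter of 1 count lost 4, and a filter of 10 counts in every library lost 1. With the replicate number as a replicate block, 10 rose and 27 fell, as Eif1ad (adjusted p = 0.0509) and Eif4a3 (0.0533) missed the threshold by edgeR. The shares of all tested genes called in these fits are not given here. The lower counts can therefore not be read as particular to the factor genes. Libraries of the same number deviated from their group means with r of 0.046, 0.18 and -0.018. Libraries of unlike number gave r from -0.116 to 0.0713. With 3 libraries a group, such values cannot tell whether the numbers pair the libraries. The smallest permutation p of 3 against 3 libraries is 0.1, so no ratio could pass 0.05, and genes that did not reach about 10 counts in at least 3 libraries were not tested.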
